A study of Mus musculus with 24 samples.

Results

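The sarcomere is the contractile unit of striated muscle, and 33 genes that encode its filaments, its Z-disc, its M-band and the structures tied to them were followed across left ventricle and liver. The genes were a list of symbols, not chosen by a threshold on these values, and it holds no myosin heavy chain gene. Of the 33 symbols, 32 matched a row of the 15323 genes in the deposited table through GENCODE M21 names, and Myoz1 matched none. The animals were 10-week-old male mice of 4 genotypes, written as nuclear genome and then mtDNA. BL/6J:C57 and NZB:NZB keep nucleus and mtDNA of the same strain, whereas BL/6J:NZB and NZB:C57 are conplastic lines, made by 10 generations of backcrossing, in which mtDNA and nucleus come from different strains. RNA of 4 males went into each pool and each genotype had 3 pools per tissue, which gives 8 groups of 3 libraries and 24 libraries in all. The labels give 12 males per genotype from which both tissues were taken, so heart and liver libraries of a genotype are not from independent animals, and which 4 mice a pool holds is not stated. The labels name no treatment and no transgene for any of the 4 genotypes. Library titles carry the word mix for BL/6J nuclei and rep for NZB nuclei, and any effect of how samples were handled that goes with the title wording is confounded with the nucleus: the 2 cannot be told apart.

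Thin filaments of actin carry tropomyosin and the troponin complex, which makes contraction depend on calcium. Thick filaments of myosin pull on them, with the light chains and myosin-binding protein C adjusting the force, and titin spans from the Z-disc to the M-band as a molecular spring. Z-discs anchor the thin filaments of neighbouring sarcomeres through α-actinin and also hold many signalling and stretch-responsive proteins, and M-bands cross-link the thick filaments. In adult mouse ventricle most of these proteins come from isoform genes used mainly in cardiac muscle, and hepatocytes build no sarcomeres.

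The deposited values were normalised by the authors. Each column was made of whole multiples of 1 constant, so that read numbers could be recovered, and libraries held 3714278 to 12949956 reads in heart and 7294525 to 34974268 in liver. The 3 NZB:C57 hearts stood apart from the other hearts. Their 20 most abundant genes took 33.4 to 34.1% of reads against 11.5 to 14.5% in the 9 other hearts, and the sum of all values was 1048698 to 1068799 against 643486 to 726047. Heart identity was checked on 18 cardiomyocyte markers outside the list (such as Myh6, Ryr2 and Pln), which summed to 36745.5 to 214751 in hearts against 247 to 555 in livers. None was at 0 throughout any heart group, nor in the 2 liver groups with an NZB nucleus. The 17 hepatocyte markers summed to 48.8 to 316 in hearts against 169401 to 327120 in livers. Genes were tested with limma on log2(value + 1) across all genes of a tissue, with Benjamini-Hochberg adjustment over all of them, and a gene is called where the adjusted p is under 0.05. In pooled tissue RNA, fewer cells of a type and less RNA per cell cannot be told apart.

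In the hearts of BL/6J:C57 mice the list took 6.72% ± 0.026 of all reads (SD, n = 3). The share was 6.93% ± 0.193 in BL/6J:NZB, 6.32% ± 0.104 in NZB:NZB and 16.5% ± 0.0617 in NZB:C57 hearts. Levels of different genes were compared per kilobase of merged exons, which join the exons of all annotated transcripts. The 7752 bp of Tnnt2 thus place it lower than its unscaled values do. Cardiac α-actin, Actc1, was first at 4198 ± 308 per kb in BL/6J:C57 hearts, followed by the ventricular regulatory light chain Myl2 at 2048, cardiac troponin C (Tnnc1) at 1430, the essential light chain Myl3 at 1308 and α-tropomyosin (Tpm1) at 1278. Actc1 ranked first of the 32 genes in every genotype, and Neb, encoding the giant thin-filament protein nebulin of skeletal muscle, ranked last at 0.2 to 0.8 per kb. Myom3 and Tpm2, 2 further genes known mainly from skeletal muscle, ranked next to last at ranks 31 and 30 in all 4 genotypes. Acta1, the skeletal α-actin gene, ranked 14 and 13 in the hearts with BL/6J nuclei, and 5 and 4 in those of NZB:NZB and NZB:C57 mice. Of the 4 genes known mainly from skeletal muscle, Neb, Myom3 and Tpm2 thus held the last 3 ranks by RNA per kb, and Acta1 did not, and the plot of all heart values gives each library without scaling by length.

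**Figure D1:**
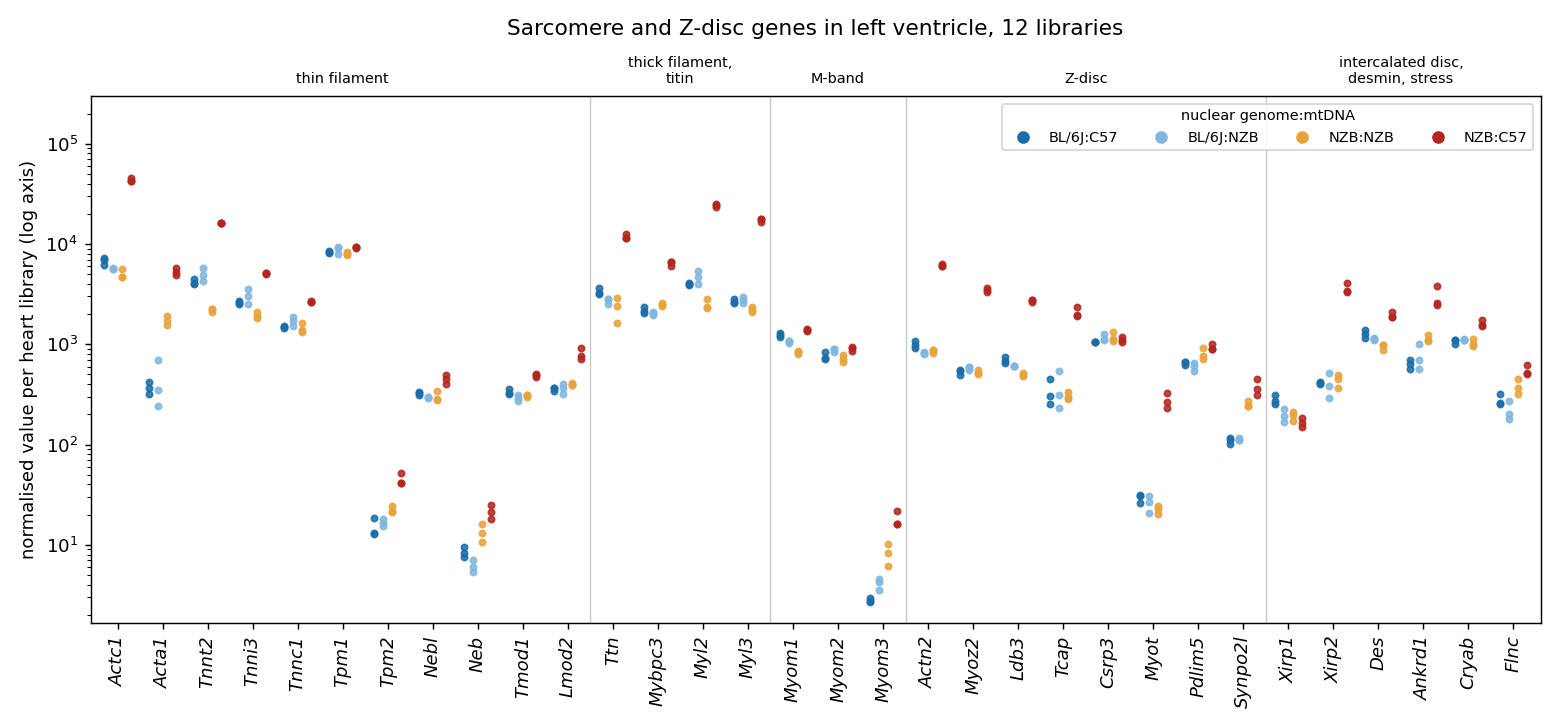
Normalised values of the 32 genes in each of the 12 heart libraries, on a log axis, grouped by the place of the protein in the sarcomere. Each point is 1 library of 4 pooled mice and the colour gives the genotype. Points of NZB:C57 lie above those of the other genotypes for most genes, for example 42669 to 45488 against 4659 to 7216 for Actc1, and among them for Csrp3.

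DNA just upstream of the genes is shown for 6 of them, because promoter elements bound by serum response factor (the CArG box) and by MEF2 are textbook features of muscle genes. The windows are 250 bases before a RefSeq start (GRCm38.p6), shortened where an annotated exon begins, printed 5′ to 3′ on the gene's strand, and they hold the reference sequence, not that of the NZB strain. Capitals mark the CArG box in Actc1 and Ldb3 and the MEF2 site in the others.
Actc1, chr2:114052888-114053125, minus strand: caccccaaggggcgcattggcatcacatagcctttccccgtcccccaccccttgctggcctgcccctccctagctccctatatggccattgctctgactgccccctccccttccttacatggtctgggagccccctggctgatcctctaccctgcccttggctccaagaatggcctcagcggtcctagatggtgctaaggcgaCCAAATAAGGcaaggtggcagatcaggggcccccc
Ldb3, chr14:34588683-34588931, minus strand: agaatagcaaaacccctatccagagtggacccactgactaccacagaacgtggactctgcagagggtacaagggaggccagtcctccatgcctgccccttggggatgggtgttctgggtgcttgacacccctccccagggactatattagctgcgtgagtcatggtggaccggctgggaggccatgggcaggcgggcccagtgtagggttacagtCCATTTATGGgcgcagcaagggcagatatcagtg
Xirp2, chr2:67445752-67446001, plus strand: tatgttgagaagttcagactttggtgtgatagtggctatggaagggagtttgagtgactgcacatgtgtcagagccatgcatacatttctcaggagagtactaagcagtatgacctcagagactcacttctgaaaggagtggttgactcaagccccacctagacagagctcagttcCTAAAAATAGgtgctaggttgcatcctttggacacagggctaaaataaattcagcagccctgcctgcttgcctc
Ttn, chr2:76982548-76982797, minus strand: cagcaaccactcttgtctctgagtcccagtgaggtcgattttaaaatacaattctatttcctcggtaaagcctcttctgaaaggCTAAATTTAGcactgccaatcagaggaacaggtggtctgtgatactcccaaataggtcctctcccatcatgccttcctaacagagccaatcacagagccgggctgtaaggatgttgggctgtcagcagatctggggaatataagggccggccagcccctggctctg
Mybpc3, chr2:91117894-91118143, plus strand: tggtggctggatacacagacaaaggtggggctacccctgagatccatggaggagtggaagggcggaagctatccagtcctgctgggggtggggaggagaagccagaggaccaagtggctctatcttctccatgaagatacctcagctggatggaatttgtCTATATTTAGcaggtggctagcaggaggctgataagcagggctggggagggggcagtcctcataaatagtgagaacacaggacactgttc
Synpo2l, chr14:20668355-20668604, minus strand: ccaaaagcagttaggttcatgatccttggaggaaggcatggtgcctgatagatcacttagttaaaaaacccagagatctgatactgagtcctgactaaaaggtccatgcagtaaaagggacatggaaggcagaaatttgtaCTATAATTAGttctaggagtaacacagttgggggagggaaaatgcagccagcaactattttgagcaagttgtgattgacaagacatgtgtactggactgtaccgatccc
A RefSeq promoter was found for 26 of the 32 genes, 36 promoters in all, and 18 of these started at a transcript start of GENCODE. A CArG box on either strand was present before 6 of the 26 genes (23.1%: Acta1, Actc1, Ldb3, Myl3, Myom1 and Nebl), against 1.62% of the 27025 genes with a RefSeq promoter. Of these 6, only Actc1 and Ldb3 had the CArG box in a window that started at a transcript start of GENCODE. MEF2 sites stood before 6 of 26 (23.1%: Mybpc3, Myom3, Myoz2, Synpo2l, Ttn and Xirp2), against 3.42% of all genes. CATTCC, the core of the MCAT element, occurred before 9 (34.6% against 14.4%), CANNTG, the E-box, before 22 (84.6% against 69.3%) and TATAAA before 3 (11.5% against 14.3%). No 2 different motifs of these overlapped in the promoters of the list. These are matches of letters, not measured binding sites, and the 12 genes with a CArG box or MEF2 site included some that were over 5-fold higher in NZB:C57 hearts (Actc1, Ldb3, Myl3, Myoz2, Ttn, Xirp2) as well as some under 1.5-fold (Nebl, Synpo2l).

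Replacing NZB mtDNA by C57 mtDNA on the NZB nucleus went with higher values of most sarcomere genes. In NZB:C57 against NZB:NZB hearts 28 of 32 genes were higher and none was lower (limma, adjusted p under 0.05), against 15.9% of all 13803 genes called (13.0% higher, 2.89% lower). The median log2 difference of the 32 was 1.05, against -0.004 over all genes. With values scaled to library totals instead of the authors' factors, which shifts the median of all genes to -0.64, 20 were higher and 5 lower, against 5.85% of all genes higher and 74.2% lower, the median was 0.37, and Myom2, Nebl, Neb, Tmod1, Cryab, Flnc and Synpo2l changed sign. Size varied widely: 11 genes differed by 5.14- to 12.1-fold, 7 by 2.01- to 3.09-fold, 6 by 1.57- to 1.99-fold, and 8 lay between 0.854- and 1.49-fold. Markers of other cells were also higher in NZB:C57 hearts: summed atrial markers were 5180 to 9231 against 659 to 987 in NZB:NZB hearts with 6 of 7 called higher, and summed fibroblast markers were 2923 to 3085 against 2060 to 2369 with 7 of 9 called higher. The 10 skeletal muscle markers in the table summed to 207 to 223 against 126 to 146, and 4 of the 5 tested were higher. Endothelial markers summed to 1667 to 1864 against 1076 to 1207 with 6 of 9 called higher, smooth muscle markers to 1231 to 1275 against 799.6 to 890.9 with 4 of 6, and macrophage markers to 233 to 276 against 199 to 223 with 2 of 7. What part these other cells have in the differences was not tested.

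Thin-filament genes were higher in 10 of 11 cases, but unevenly. Actc1 read 5691, 4659 and 4659 in the NZB:NZB hearts and 42669, 45488 and 42921 in NZB:C57 hearts, 8.73-fold more (log2 difference 3.13, SE 0.10, adjusted p = 2.06e-13). Troponin T, Tnnt2, which ties troponin to tropomyosin, read 2271, 2122 and 2259 against 16189, 16349 and 16249 (2.87, SE 0.10, adjusted p = 5.24e-13). Neither gene overlapped between groups. The partners of Tnnt2 in the same complex moved less: the inhibitory subunit gene Tnni3 was 2.61-fold and Tnnc1 1.85-fold higher, both called. Per kb, Tnnt2 was 20.8% ± 2.24 of Tnnc1 in NZB:NZB hearts and 81.7% ± 1.68 in NZB:C57 hearts (SD, n = 3). The per-kb ratio was 39.2% ± 2.15 for BL/6J:NZB hearts and 37.8% ± 3.33 for BL/6J:C57 hearts. Without scaling by length, Tnnt2 was 155% of Tnnc1 in NZB:NZB hearts and 608% in NZB:C57 hearts. The unscaled ratio was 292% for BL/6J:NZB hearts and 281% for BL/6J:C57 hearts. Which gene stood higher within a genotype thus depended on the merged-exon lengths, 7752 bp for Tnnt2 and 1041 bp for Tnnc1. Tpm1, the tropomyosin that covers most cardiac thin filaments, read 8357, 7824 and 7949 against 9402, 9430 and 9201, a log2 difference of 0.22 (SE 0.09, adjusted p = 0.143) that was not called although the libraries did not overlap. Acta1 was 3.09-fold, the minor tropomyosin Tpm2 2.01-fold and the thin-filament elongation factor Lmod2 1.99-fold higher, whereas the pointed-end cap Tmod1 and the nebulin genes Neb and Nebl were 1.49- to 1.61-fold higher, with library totals taking Tmod1, Neb and Nebl below 0.

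Thick-filament genes were called in 4 of 4 cases. Myl2 read 2818, 2306 and 2375 in NZB:NZB hearts and 24630, 25051 and 23241 in NZB:C57 hearts (log2 difference 3.29, SE 0.11, adjusted p = 2.7e-13). Myl3 read 2358, 2182 and 2112 against 17684, 17915 and 16723 (2.98, SE 0.08, adjusted p = 3.57e-14). The light chains, which wrap the lever arm of myosin, thus differed 9.72- and 7.87-fold. Titin (Ttn) was 5.14-fold and Mybpc3, the cardiac myosin-binding protein C, 2.60-fold higher. M-band genes differed less. Myom3 was 2.18-fold, Myom1 1.67-fold and Myom2 1.25-fold higher, and scaled to library totals Myom2 was called lower instead (log2 -0.38).

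Among the 8 Z-disc genes with values, 6 were called. Myoz2, a calcineurin-binding protein of the Z-disc, had the smallest p of the list: on chromosome 3 (GRCm38, 123006206 to 123035015, minus strand), its libraries read 557, 520 and 510 against 3470, 3348 and 3627 (log2 difference 2.72, SE 0.07, adjusted p = 1.14e-14). Sarcomeric α-actinin, Actn2, which cross-links actin at the Z-disc, read 877, 876 and 822 against 6015, 6016 and 6261 (2.83, SE 0.07, adjusted p = 1.14e-14). For Ldb3, a PDZ-LIM partner of α-actinin, the values were 499, 512 and 487 against 2761, 2760 and 2638 (2.44, SE 0.07, adjusted p = 3.1e-14). All 3 genes stood over 5-fold higher with no overlap between groups. Myotilin, Myot, showed the largest fold of the list, from 24.6, 20.2 and 23.0 to 230, 263 and 328 (12.1-fold, log2 3.53, SE 0.14, adjusted p = 2.19e-12). Tcap, the titin cap, was 6.79-fold higher, and Synpo2l 1.49-fold, with a sign that library totals reverse. Csrp3, a LIM protein of the Z-disc linked to stretch sensing, read 1314, 1130 and 1071 against 1064, 1170 and 1115 (log2 -0.07, SE 0.08, adjusted p = 0.711), and Pdlim5 read 921, 711 and 771 against 890, 892 and 1004 (0.22, SE 0.09, adjusted p = 0.142), so that the groups overlapped for both.

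Of the Xin repeat genes, whose products bind actin at the intercalated disc, Xirp2 was called and Xirp1 was not. Xirp2 read 364, 454 and 495 in NZB:NZB and 3388, 3360 and 4132 in NZB:C57 hearts (8.29-fold, log2 3.05, SE 0.15, adjusted p = 7.06e-11). Xirp1 read 173, 213 and 196 against 149, 165 and 184 (log2 -0.23, SE 0.11, adjusted p = 0.213), and its groups overlapped. Of the remaining genes, the stretch-responsive Ankrd1 was 2.59-fold, the intermediate filament gene Des 2.06-fold, the small heat-shock protein gene Cryab 1.57-fold and filamin C (Flnc) 1.45-fold higher. All 4 were called, but Flnc lost its call when either NZB:NZB replicate 1 or replicate 3 of NZB:C57 was left out (adjusted p = 0.0644 and 0.0653, limma), and Cryab and Flnc turned below 0 on library totals.

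**Figure D2:**
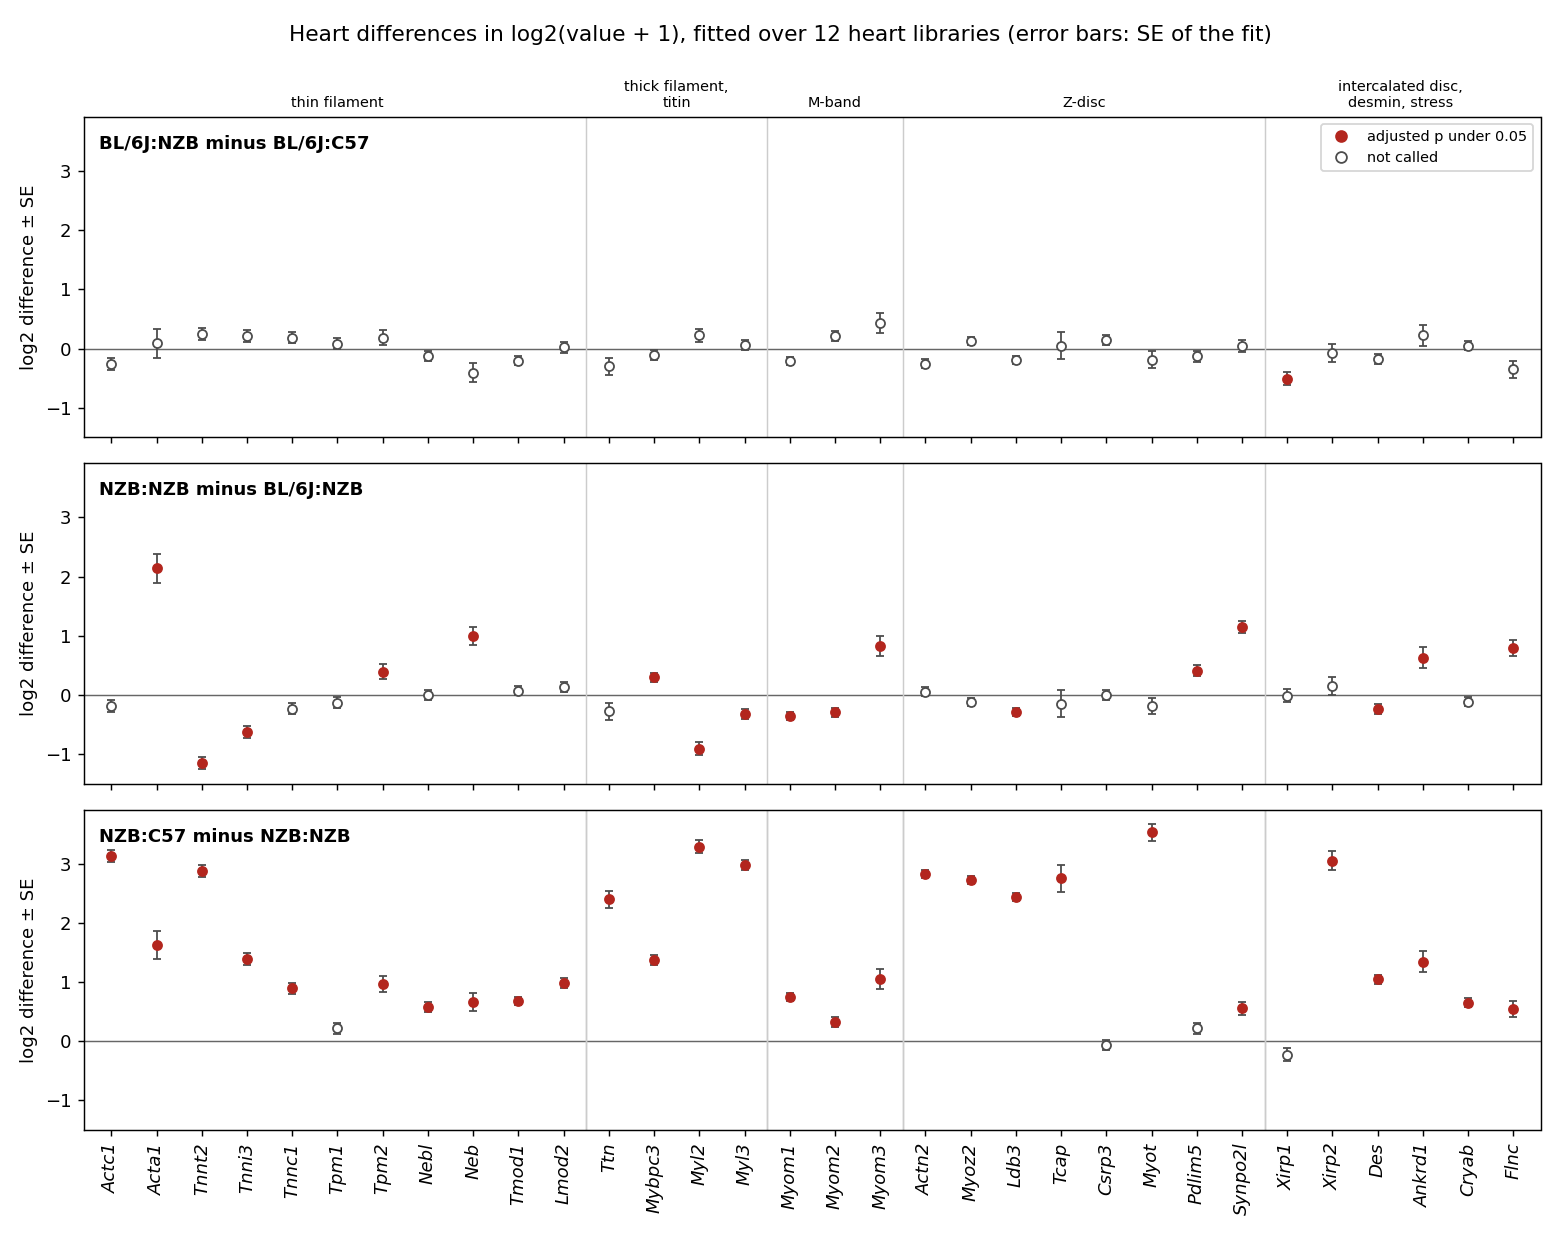
Differences in log2(value + 1) of the 32 genes in 3 heart comparisons (y axis), with SE from the limma fit over 12 libraries as error bars. Filled points have an adjusted p under 0.05: 1 gene for the mtDNA on the BL/6J nucleus, 17 for the nuclear genome with NZB mtDNA and 28 for the mtDNA on the NZB nucleus.

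The differences were set beside other genes of the same cells. The 18 cardiomyocyte markers outside the list had a geometric mean of 903 ± 12 in NZB:NZB and 3380 ± 50.4 in NZB:C57 hearts (SD, n = 3), a log2 difference of 1.90, with 17 called higher and 1 lower. Of the 32 sarcomere genes, 11 differed by more than this mean and 21 by less. Taking ratios to the mean subtracts the same 1.90 from each gene, which gives a median of -0.81 and a range from -2.13 (Xirp1) to 1.68 (Myot) and leaves the order of the genes as it was, so a sign says only whether a gene lies above or below the marker mean. The 11 are the genes that were over 5-fold higher: Actc1, Tnnt2, Ttn, Myl2, Myl3, Actn2, Myoz2, Ldb3, Tcap, Myot and Xirp2. Of 57 further sarcomere, Z-disc and costamere genes, 54 were in the table and 51 tested, and 31 were higher and 2 lower in this comparison, with a median of 0.76. The 3 with the smallest p were the muscle ring-finger genes Trim63 (log2 3.69) and Trim54 (3.72) and the leiomodin Lmod3 (3.09). That list shares 7 genes with the skeletal muscle markers and 2 each with the atrial and cardiomyocyte markers.

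**Figure D3:**
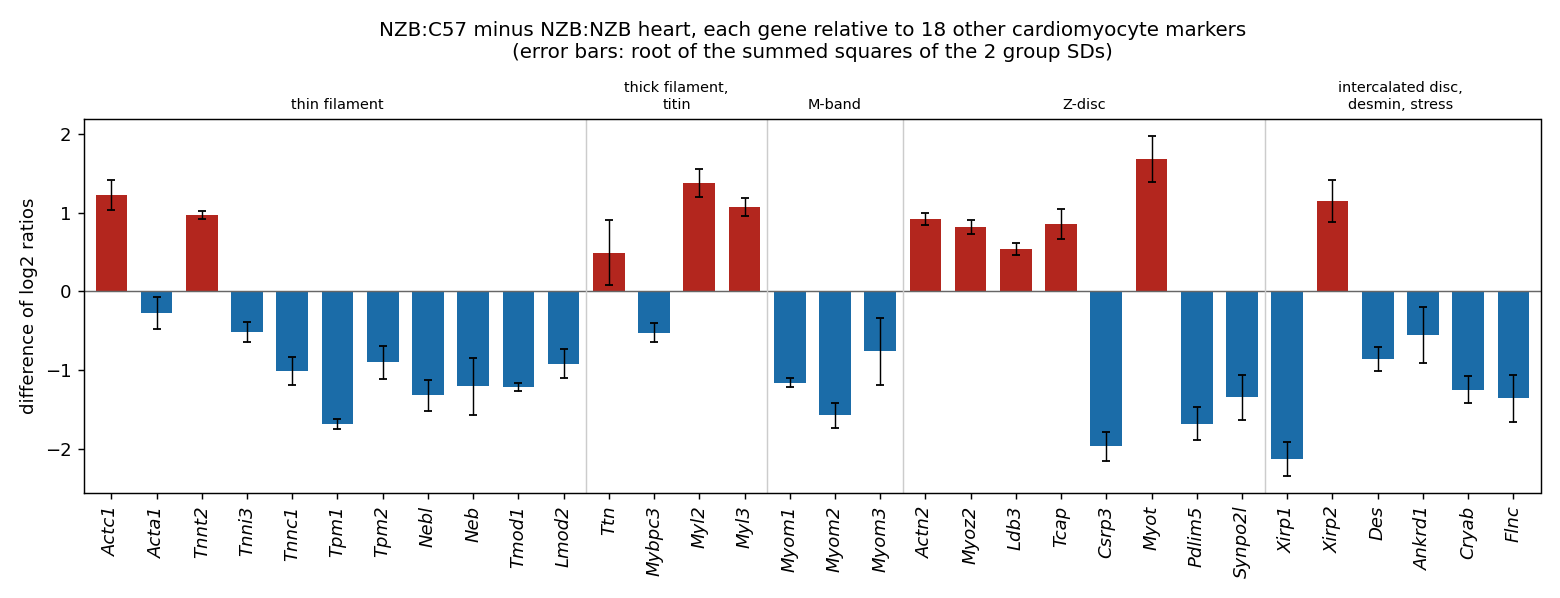
Difference between NZB:C57 and NZB:NZB hearts in the log2 ratio of each gene to the geometric mean of 18 other cardiomyocyte markers (y axis). Bars are differences of group means and error bars combine the 2 group SDs of 3 libraries each. Red bars above 0 are the 11 genes that differed more than the markers and blue bars the 21 that differed less.

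On the BL/6J nucleus few sarcomere genes passed the threshold for a difference with the mtDNA. In BL/6J:NZB against BL/6J:C57 hearts 1 of 32 genes was called, against 0.935% of all genes (0.427% higher, 0.507% lower), and the median log2 difference was 0.03 against 0.002 over all genes. Xirp1 read 311, 253 and 272 in BL/6J:C57 and 226, 193 and 169 in BL/6J:NZB hearts, 1.42-fold lower (log2 -0.51, SE 0.11, adjusted p = 0.0440). The groups did not overlap, but the call was lost without BL/6J:C57 replicate 1 or 3 or BL/6J:NZB replicate 2 or 3 (adjusted p 0.137 to 0.197) and without the NZB:C57 libraries (0.0598). Without adjustment 11 of the 32 genes had a limma p under 0.05, as did 2340 of all 13803 genes. After Xirp1 the smallest p belonged to Actn2, which read 1068, 917 and 977 against 826, 809 and 844 (log2 -0.25, SE 0.07, adjusted p = 0.0939), and it was not called. DESeq2 on the recovered reads called 7 genes, 2 higher and 5 lower, against 2.52% higher and 3.91% lower of the 6577 genes to which it gave an adjusted p. Beside them, limma called 5 of 18 cardiomyocyte markers and 1 of 6 smooth muscle markers lower, and 1 of 9 endothelial markers higher, and their part was not tested.

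For most sarcomere genes the mtDNA difference was not the same on the 2 nuclear genomes. The difference between C57 and NZB mtDNA was larger on the NZB than on the BL/6J nucleus for 26 of 32 genes and smaller for 1 by limma's interaction term, against 11.2% of all genes called (9.81% larger, 1.42% smaller), with 19 and 4 on library totals, where 4.98% of all genes were larger and 61.2% smaller. Myoz2 had the smallest p, at 2.84 log2 units (SE 0.10, adjusted p = 1.74e-12), and Myl2 the largest size, at 3.51 (SE 0.16, adjusted p = 4.23e-11), followed by Myot at 3.34 and Tnnt2 at 3.11. Actc1 (2.88), Myl3 (3.03), Actn2 (2.57) and Ldb3 (2.25) had the same direction. Xirp1 was the exception at -0.74 (SE 0.16, adjusted p = 0.00336), being higher with C57 mtDNA on the BL/6J nucleus. No call was made for Tpm1, Neb, Flnc, Pdlim5 and Csrp3. The same term was positive and called for 15 of 18 cardiomyocyte markers (negative for 1), 6 of 7 atrial, 6 of 9 endothelial, 5 of 9 fibroblast, 4 of 6 smooth muscle, 3 of 5 blood, 3 of 5 skeletal muscle and 1 of 7 macrophage markers, and for none of 16 hepatocyte markers. The part of other cells in the term was not tested. On library totals Myom1, Myom2, Nebl, Tmod1 and Synpo2l changed sign.

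With NZB mtDNA in both groups, the nuclear genome went with changes in both directions. NZB:NZB against BL/6J:NZB hearts had 9 genes higher and 8 lower, against 29.1% of all genes called (15.5% higher, 13.6% lower), and DESeq2 on recovered reads gave 7 and 11, against 23.1% of all genes called. The median was -0.06 against 0.02 over all genes. The comparison shares its NZB:NZB libraries with the one of mtDNA on the NZB nucleus. Tnnt2 was lower, at 2271, 2122 and 2259 against 4251, 4919 and 5728 in BL/6J:NZB (log2 -1.15, SE 0.10, adjusted p = 1.82e-07). Myl2 was lower too, at 2818, 2306 and 2375 against 3987, 4715 and 5437 (-0.91, SE 0.11, adjusted p = 9.21e-06). Neither gene overlapped between the groups. Tnni3 at 2117, 1913 and 1839 against 2529, 3064 and 3521 (-0.62, SE 0.10, adjusted p = 0.000192) and Myom1 at 794, 853 and 845 against 1086, 1073 and 1028 (-0.35, SE 0.07, adjusted p = 0.000677) were also lower without overlap. The other 4 lower genes, Myl3, Ldb3, Myom2 and Des, differed by 1.18- to 1.25-fold, and Des lost its call without the NZB:C57 libraries (adjusted p = 0.0540, limma) and without any 1 BL/6J:NZB library or NZB:NZB replicate 3 (up to 0.165).

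Among the genes higher with the NZB nucleus, Acta1 stood first in size. It read 1710, 1918 and 1569 in NZB:NZB hearts and 705, 349 and 243 in BL/6J:NZB hearts (4.01-fold, log2 2.14, SE 0.24, adjusted p = 3.54e-06). Synpo2l, a synaptopodin-like protein of the cardiac Z-disc, read 244, 270 and 243 against 117, 112 and 110 (1.15, SE 0.10, adjusted p = 2.16e-07). Both genes separated the groups completely, and BL/6J:NZB replicate 1 was the highest of its group for Acta1. Neb read 10.6, 13.2 and 16.2 against 5.37, 6.04 and 7.02 (0.99, SE 0.16, adjusted p = 0.000132), and Flnc 318, 448 and 369 against 273, 204 and 181 (0.79, SE 0.14, adjusted p = 0.000441). Myom3, Ankrd1, Tpm2, Pdlim5 and Mybpc3 were higher by 1.23- to 1.98-fold, but Tpm2 lost its call without BL/6J:NZB replicate 1 or 2 or NZB:NZB replicate 2 or 3 (adjusted p 0.0601 to 0.112, limma) and Ankrd1 without BL/6J:NZB replicate 3 (0.0731). Acta1, Neb, Myom3 and Tpm2 are best known from skeletal muscle. Beside them the 10 skeletal markers summed to 126 to 146 in NZB:NZB against 39.5 to 45.1 in BL/6J:NZB hearts. Of the 5 tested, 1 was called higher (Casq1, log2 3.09) and 1 lower (Myl1, -2.24). Only 2 of these 5 were above 0, with a median log2 difference of -0.11, so most of them did not share the higher sum. Fibroblast markers, all 9 of them called higher, summed to 2060 to 2369 against 845 to 909, and macrophage markers, 6 of 7 called higher, to 199 to 223 against 125 to 155. Of the 18 cardiomyocyte markers 3 were higher and 7 lower. Their part in these differences was not tested.

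The ratio of the 2 sarcomeric actins differed between genotypes. Per kb, Acta1 was 5.74% ± 0.627 of Actc1 in BL/6J:C57, 8.06% ± 4.62 in BL/6J:NZB, 36.8% ± 5.97 in NZB:NZB and 12.9% ± 1.16 in NZB:C57 hearts (SD, n = 3). The NZB:NZB libraries, at 31.7 to 43.4%, lay above all others. In NZB:C57 hearts both actins were higher than in NZB:NZB hearts, but Actc1 by more (8.73- against 3.09-fold), so that the ratio was lower there.

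**Figure D4:**
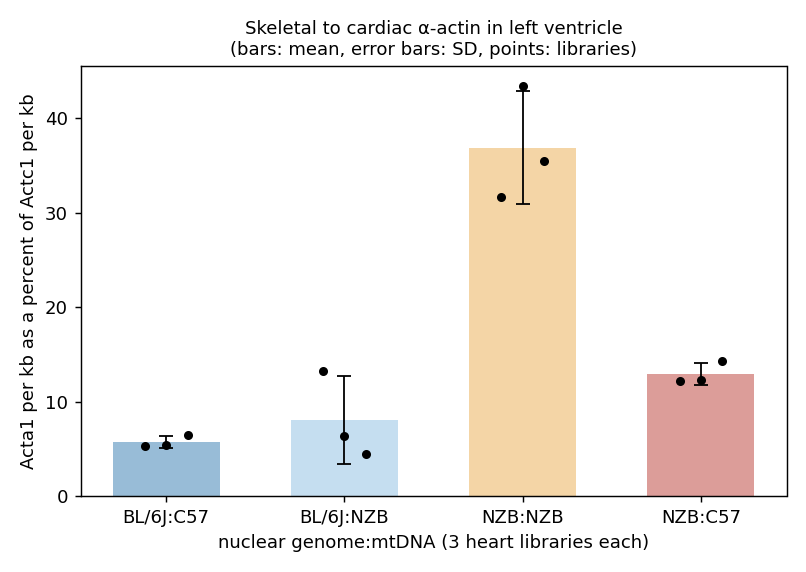
Acta1 per kb as a percent of Actc1 per kb in each heart library (points), with the mean (bar, from 0) and SD (error bar) of 3 libraries per genotype on the x axis. NZB:NZB hearts have the highest ratio at 36.8%, and 1 BL/6J:NZB library at 13.3% lies above the other 2 of its group.

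With C57 mtDNA in both groups, NZB:C57 against BL/6J:C57 hearts had 28 genes higher and 1 lower, against 35.2% of all genes called (22.1% higher, 13.1% lower). On library totals there were 22 and 5, against 11.8% and 64.8% of all genes, with Myom2, Nebl, Tmod1, Pdlim5 and Cryab changing sign. This comparison shares the NZB:C57 libraries with the one on the NZB nucleus, so the 2 are not independent. Values of the BL/6J:C57 hearts were 538, 498 and 550 for Myoz2 (log2 difference 2.72, SE 0.07, adjusted p = 3.06e-15) and 1068, 917 and 977 for Actn2 (2.63, SE 0.07, adjusted p = 9.58e-15). Myl3 read 2818, 2618 and 2582 there (2.71, SE 0.08, adjusted p = 5.57e-14), and Ldb3 753, 644 and 685 (1.97, SE 0.07, adjusted p = 2.34e-13). The NZB:C57 values given before lay above all of these. Actc1 at 7216, 6244 and 6917 (2.69, SE 0.10, adjusted p = 9.93e-13) and Myl2 at 4066, 3884 and 4032 (2.60, SE 0.11, adjusted p = 3.86e-12) in BL/6J:C57 hearts were likewise below every NZB:C57 library. Myot read 30.8, 31.3 and 26.4 (3.16, SE 0.14, adjusted p = 5.75e-12) and Xirp2 403, 422 and 408 (3.13, SE 0.15, adjusted p = 2.68e-11). Acta1 (chromosome 8, 123891769 to 123894751, minus strand) showed the largest fold, 14.5, from 365, 323 and 424 to 4959, 5297 and 5808, and Xirp2 differed 8.82-fold and Myot 9.28-fold. Myom3, at 2.73, 2.70 and 2.96 in BL/6J:C57 and 16.0, 16.0 and 21.6 in NZB:C57 hearts, was 6.40-fold higher. Xirp1 was the gene called lower, at 149, 165 and 184 against 311, 253 and 272 (log2 -0.75, SE 0.11, adjusted p = 3.23e-05). Myom1, Tpm1 and Csrp3 were not called. Markers of other cells were higher in the same comparison: 9 of 9 fibroblast markers (summing to 2923 to 3085 against 844 to 860), 7 of 7 atrial (5180 to 9231 against 359 to 822), 7 of 7 macrophage (233 to 276 against 147 to 155), 8 of 9 endothelial (1667 to 1864 against 971 to 1070), 5 of 6 smooth muscle (1231 to 1275 against 698 to 738) and 5 of 5 skeletal muscle markers tested. Of the cardiomyocyte markers 16 of 18 were higher and 1 lower, and 13 of 16 hepatocyte markers were higher, at sums of 114 to 212 against 48.8 to 61.9. Their part in the differences was not tested.

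Liver held little RNA of most of these genes, as 23 of the 32 were under 0.1% of their heart level in BL/6J:C57 mice, with a median of 0.0249%. Together they took 0.0148% of liver reads in that genotype, 0.0152% in BL/6J:NZB, 0.0306% in NZB:NZB and 0.0224% in NZB:C57. As the list was chosen for muscle, higher values in heart were set in advance for most genes. Flnc, Lmod2, Myot, Nebl and Synpo2l also passed the filter only through hearts. The counts between heart and liver are therefore a description. Between heart and liver of BL/6J:C57 mice limma called 30 genes higher in heart and 1 lower, against 77.0% of all genes (37.3% higher, 39.8% lower). In BL/6J:NZB mice 31 were higher and 1 lower (75.9% of all genes, 37.5% higher, 38.4% lower). In NZB:NZB mice 30 were higher and 2 lower (75.1%, 37.8% higher, 37.4% lower), and in NZB:C57 mice 31 higher and 1 lower (79.5%, 39.6% higher, 39.9% lower). The exceptions were Neb, which was lower in heart than in liver in all 4 genotypes, and Myom3, which was lower in heart in NZB:NZB and was not called in BL/6J:C57. On library totals, which shift the median of all genes by 0.31 to 0.75, Myom3 in NZB:NZB turned to 0.06 and Neb in NZB:C57 lost its call, as it did without NZB:C57 heart replicate 2 (adjusted p = 0.0516, limma).

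Neb, Pdlim5, Tpm1 and Csrp3 had the highest liver values of the list in BL/6J:C57 mice, without scaling by length. In heart, Neb ranked last per kb. Neb read 33.5, 38.5 and 51.2 in BL/6J:C57 livers, 485.8% of its heart mean, and 26.1 to 51.2 in the other genotypes, where it was 566% (BL/6J:NZB), 345% (NZB:NZB) and 147% (NZB:C57) of the heart mean. Pdlim5 read 63.1, 58.5 and 73.2, Tpm1 38.8, 39.5 and 38.5, and Csrp3 45.3, 37.5 and 35.2 in BL/6J:C57 livers. Their liver means were 9.89% (Pdlim5), 0.470% (Tpm1) and 3.74% (Csrp3) of the heart means. Tpm1 was higher in NZB:NZB livers, at 76.8, 63.2 and 52.0, than in BL/6J:NZB livers, at 36.9, 34.5 and 32.4 (limma, log2 0.85, SE 0.15, adjusted p = 0.000822). Csrp3 lay between 26.5 and 45.3 in all 12 livers. Pdlim5 and Tpm1 are known outside striated muscle, whereas Csrp3 is known mainly from striated muscle. Tpm2 read 8.81, 4.80 and 4.90 in BL/6J:C57 livers and 2.19, 0.970 and 1.81 in NZB:C57 livers, lower by 3.72-fold (limma, log2 -1.41, SE 0.24, adjusted p = 0.000716), while in heart it was higher in NZB:C57 than in BL/6J:C57 mice.

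For heart-type genes the values were higher in livers with the NZB nucleus than in those with the BL/6J nucleus, with 1 library as an exception. The nucleus goes with the title wording, so handling cannot be told apart from it here. Actc1 read 0, 0.0558 and 0.0398 in BL/6J:C57 livers and 0, 0 and 0.0720 in BL/6J:NZB livers. In NZB:NZB livers it read 26.9, 13.6 and 7.96, and in NZB:C57 livers 0, 31.4 and 26.8. Tnnt2 read 18.3, 10.3 and 4.20 in NZB:NZB and 0, 9.12 and 7.24 in NZB:C57 livers, against at most 0.576 in livers with the BL/6J nucleus. Ttn read 12.1, 8.16 and 4.87 and then 0, 9.32 and 11.5 in these NZB groups, against at most 0.280. The troponin, titin and actin genes thus shared 1 order of libraries within NZB:NZB, with replicate 1 highest and replicate 3 lowest. Myl2 read 13.3, 6.29 and 3.54 in NZB:NZB and 0, 14.7 and 8.23 in NZB:C57 livers. Myl3 read 10.3, 4.32 and 2.54 and then 0, 9.12 and 6.91, and Tnni3 9.78, 5.50 and 3.76 and then 0.314, 6.79 and 5.76. Replicate 1 of NZB:C57 thus resembled livers with the BL/6J nucleus for these 6 genes: of the 23 genes under 0.1% of heart in BL/6J:C57, 11 had no read in it, against 1 in each of replicates 2 and 3. In NZB:NZB livers at most 1 of the 23 had no read, and their median level was 0.484, 0.281 and 0.176% of the heart mean, highest in replicate 1. Counting reads over the group, Actc1 had 504 in NZB:NZB and 1 in BL/6J:NZB livers, a ratio of 606 (95% exact interval 108 to 23976, counting error only). Myl2 was at least 97.0-fold and Acta1 at least 34.9-fold higher, since BL/6J:NZB livers held no read of either (bound from 3 reads over the group).

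NZB:NZB against BL/6J:NZB livers had 22 of the 27 tested genes higher and none lower by limma, against 24.9% of all genes called (12.9% higher, 11.9% lower). The 5 untested genes, Flnc, Lmod2, Myot, Nebl and Synpo2l, did not reach a value of 1 in 3 livers. Genes that passed this filter only through NZB livers had to differ, Myom2 and Ankrd1 among them. The count and the p of such genes are therefore a description. The 2 smallest p belonged to the myomesins Myom2 and Myom3. The next were Ankrd1 (log2 2.05, SE 0.29, adjusted p = 0.000134) and Cryab (0.98, SE 0.16, adjusted p = 0.000619), at 7.22, 6.78 and 5.09 in NZB:NZB against 2.98, 2.66 and 2.45 in BL/6J:NZB livers for Cryab. Desmin and Xirp1 did not pass: Des read 7.95, 5.70 and 5.86 against 4.38, 3.09 and 4.75, and Xirp1 6.58, 1.77 and 5.20 against 3.17, 2.41 and 3.31. With a filter of 5 in 3 libraries 11 of 16 were called, against 25.3% of all genes. Actc1, Tnnt2, Ttn and Myl2 reached 5 only in livers with an NZB nucleus, so this count is a description too. Cardiomyocyte markers outside the list were higher beside them: 12 of 14 tested were higher and none lower, against 12.9% and 11.9% of all genes. Markers that passed the filter only through NZB livers had to differ here too, so this count is a description. Their sum was 448 to 555 against 274 to 382. None of the 18 was at 0 in NZB:NZB livers against 8 of 18 in BL/6J:NZB livers, Myh6 and Mb among these. Markers of other liver cells were higher as well: 5 of 8 fibroblast markers (261 to 290 against 175 to 257), 5 of 9 endothelial (204 to 233 against 132 to 180) and 3 of 5 smooth muscle markers tested (60.4 to 70.5 against 40.1 to 53.8). The part of heart RNA or of these cells in the differences, those of Tpm1 and Pdlim5 included, was not tested.

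Between the conplastic NZB:C57 and BL/6J:C57 livers 14 genes were higher and 1 lower, against 27.9% of all genes called (13.1% higher, 14.8% lower), and this count rested on single libraries. Here too, genes at or near 0 in livers with the BL/6J nucleus that passed the filter only through NZB livers had to differ, so the count is a description. It was 5 without NZB:C57 replicate 2, 6 without replicate 3 and 21 without replicate 1, and 7 without BL/6J:C57 replicate 1 and 8 without replicate 2. Replicate 1 was also taken as the 1 library of NZB:C57, a setting added after the values were seen. In it Actc1, Tnnt2, Ttn and Myl2 were lower than in BL/6J:C57 livers by a log2 of -0.03 to -0.11. With all libraries, 10 of 14 cardiomyocyte markers were higher and none lower, 7 of 17 hepatocyte markers were higher and 1 lower, and 3 of 7 macrophage markers were lower. The count of cardiomyocyte markers is a description for the same reason as that of the list. BL/6J:NZB against BL/6J:C57 livers had no member called by limma, against 0.00760% of all genes, and 0 by edgeR (0.0152% of all genes). Without adjustment 1 member had a limma p under 0.05, as did 1284 of all 13159 genes. The 1 was Myom3 (1.94, 3.07 and 1.79 against 0.560, 0.601 and 0.864 in BL/6J:NZB; log2 -0.95, SE 0.18, adjusted p = 0.147), which DESeq2 called (0.651% of all genes) and which limma called without BL/6J:C57 replicate 3.

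Myom2 (chromosome 8, 15057653 to 15133541, plus strand), which encodes an M-band protein, had another pattern over the liver libraries. It read 0.0881, 0 and 0.119 in BL/6J:C57 and 0, 0.0859 and 0 in BL/6J:NZB mice, but 17.1, 11.2 and 15.5 in NZB:NZB and 26.2, 33 and 29 in NZB:C57 mice. The first NZB:C57 library, in which Actc1 had no read, was thus as high as its group for Myom2. Its log2 difference was 3.90 between NZB:NZB and BL/6J:NZB (limma, SE 0.16, adjusted p = 6.31e-10), 4.82 between NZB:C57 and BL/6J:C57 (SE 0.16, adjusted p = 5.16e-11) and 0.98 between NZB:C57 and NZB:NZB (SE 0.16, adjusted p = 0.00173). Myom2 passed the filter only through livers with an NZB nucleus. It had to differ between the nuclei, so the p of those comparisons are a description. In heart the same gene varied little, by 1.22-fold lower in NZB:NZB than in BL/6J:NZB and 1.25-fold higher in NZB:C57 than in NZB:NZB. In NZB:NZB livers Myom2 stood at 2.02% of its heart mean. Myom3 was also high in every liver with an NZB nucleus, at 14.3, 14.7 and 13.4 in NZB:NZB and 8.07, 8.93 and 11.9 in NZB:C57 mice, and was 20.9-fold above BL/6J:NZB livers (log2 3.18, SE 0.18, adjusted p = 1.19e-08).

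The mtDNA on the NZB nucleus gave 2 calls in liver, against 8.09% of all genes (3.65% higher, 4.44% lower). Besides Myom2, Pdlim5 was lower in NZB:C57 livers, at 72.4, 68.5 and 68.3 against 92.7, 84.1 and 89.3 in NZB:NZB (log2 -0.34, SE 0.09, adjusted p = 0.0343). The groups did not overlap, but the call was lost when any 1 of the 6 libraries was left out (adjusted p 0.0593 to 0.144). Pdlim5 is not confined to muscle, and markers of other cells were lower in the same livers: 6 of 8 fibroblast markers (101 to 161 against 261 to 290), 5 of 9 endothelial (103 to 120 against 204 to 233), 3 of 5 smooth muscle (32.4 to 35.7 against 60.4 to 70.5) and 3 of 7 macrophage markers (125 to 159 against 209 to 276), while 5 of 17 hepatocyte markers were higher. Their part was not tested. On library totals 1 gene was higher and 8 lower, against 2.67% and 19.3% of all genes. With replicate 1 alone as NZB:C57, a setting added after the values were seen, log2 differences were 0.82 for Myom2 and -0.29 for Pdlim5. That library held 0 reads of Actc1, Tnnt2, Ttn, Myl2 and Myl3, so lower values of these genes were fixed by the choice. The interaction of mtDNA and nucleus was not tested in liver.

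**Figure D5:**
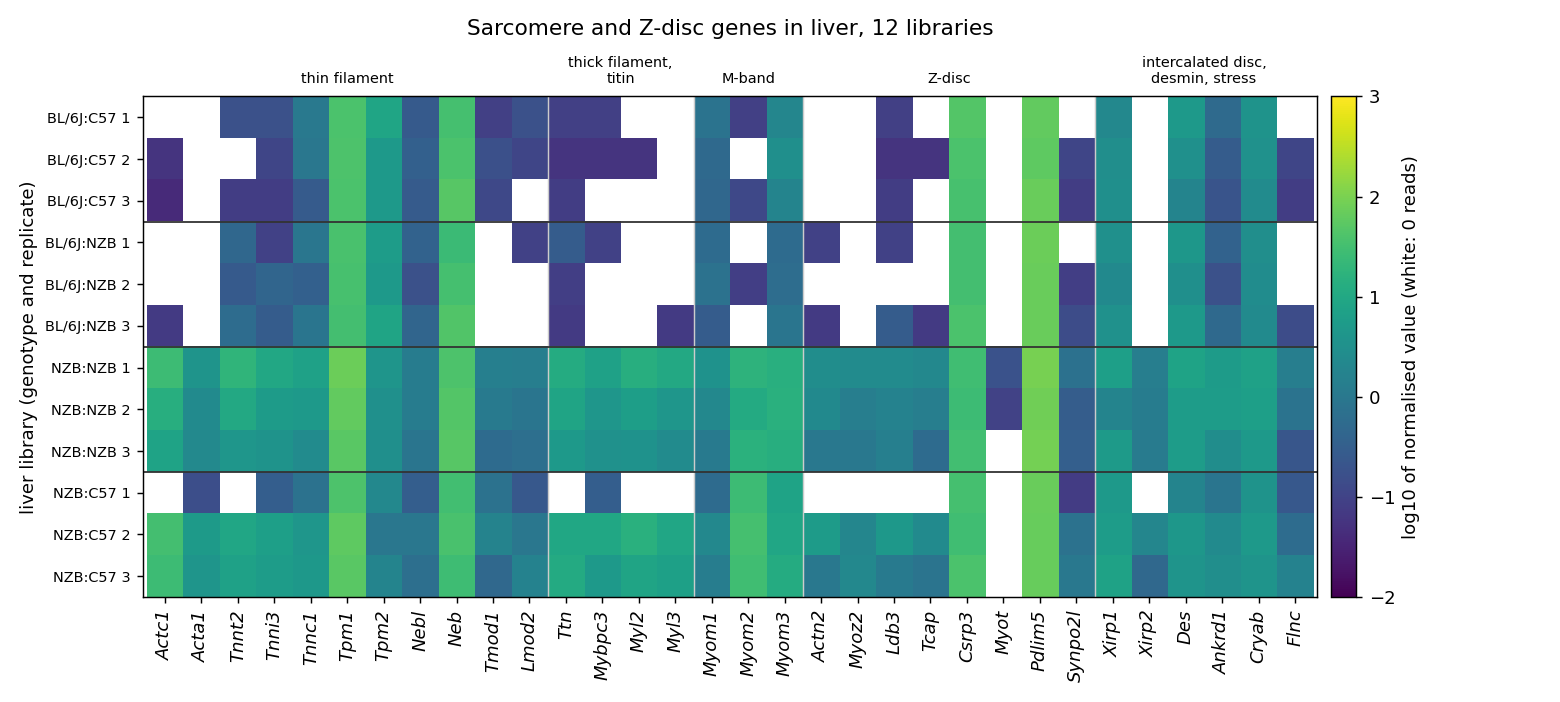
Values of the 32 genes (x axis) in the 12 liver libraries (y axis), as log10 of the normalised value in colour, with white where no read was found. The 3 NZB:NZB rows and NZB:C57 replicates 2 and 3 hold heart-type genes such as Actc1 and Myl2, NZB:C57 replicate 1 does not, and Myom2 is high in all 6 rows with an NZB nucleus.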

How the data were processed

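Poly(A) RNA of pooled males was sequenced on an Illumina Genome Analyzer IIx. Per the submitters' processing notes, cutadapt 1.2.1, RSEM 1.2.3, Bowtie2 2.0.6, edgeR (no version given) and GRCm38 were used, with no stated order. The authors deposited a normalised signal per gene. All values (100.0%) were whole multiples of 1 constant per library, within 0.01, which gave read numbers. Because the deposited values are normalised, the test was limma 3.58.1 (R 4.3.3, trend) on log2(value + 1), with genes at 1 or more in 3 libraries, 12 libraries of a tissue per fit and 24 for heart against liver. P-values were adjusted over all genes (Benjamini-Hochberg, threshold 0.05). Folds are ratios of group means. edgeR 4.0.16 and DESeq2 1.42.0 on recovered reads, other filters, scalings, the replicate block and left-out libraries were alternatives.

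The genes and marker lists were chosen with earlier results of these data known. Full statistics were given for at most 8 called genes per heart comparison by p, the 5 highest per kb, and liver genes with a group mean of 5 or more. Replicate numbers were not used to pair libraries in the main fits. Each pool holds 4 animals, and both tissues came from the same 12 males per genotype, per the labels. Scripts were tested on simulated data.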

Additional observations from a re-analysis of the deposited data

Results flagged for a closer look

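For 27 of the 32 genes the difference between C57 and NZB mtDNA in heart was not the same on the NZB and the BL/6J nucleus, by limma's interaction term at an adjusted p under 0.05. Values are log2 differences of the 2 differences, NZB nucleus minus BL/6J nucleus. Thin-filament genes were Tnnt2 (3.11), Actc1 (2.88), Acta1 (1.72), Tnni3 (1.60), Tpm2 (1.15), Tnnc1 (1.08), Lmod2 (1.01), Tmod1 (0.48) and Nebl (0.46). Thick-filament and titin genes were Myl2 (3.51), Myl3 (3.03), Ttn (2.10) and Mybpc3 (1.27), and M-band genes Myom3 (1.48), Myom2 (0.54) and Myom1 (0.53). Z-disc genes were Myot (3.34), Myoz2 (2.84), Tcap (2.81), Actn2 (2.57), Ldb3 (2.25) and Synpo2l (0.60). The others were Xirp2 (2.97), Ankrd1 (1.57), Des (0.87), Cryab (0.70) and Xirp1 (-0.74), the 1 negative value. All 4 heart groups enter each value, the NZB:C57 hearts that stand apart included.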

How the results depend on the processing

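Of 4023 values of called genes under alternative settings, 3867 kept direction and call, 134 lost the call and 22 changed sign. Of 60 values of the 4 genes with the smallest p between the livers with BL/6J nuclei, where none was called, 58 kept direction and stayed uncalled and 2, both of Myom3, gained a call. Library totals shift the median of all genes by -0.64 between NZB:C57 and NZB:NZB hearts, -0.52 against BL/6J:C57 and -0.59 in the interaction. There, Myom2 (-0.38), Nebl (-0.12), Neb (-0.0049), Tmod1 (-0.017), Cryab (-0.051), Flnc (-0.16) and Synpo2l (-0.15) changed sign against NZB:NZB. Against BL/6J:C57 these were Myom2 (-0.34), Nebl (-0.13), Tmod1 (-0.032), Pdlim5 (-0.090) and Cryab (-0.00055), and in the interaction Myom1 (-0.15), Myom2 (-0.13), Nebl (-0.22), Tmod1 (-0.19) and Synpo2l (-0.079). Myom3 in heart minus liver of NZB:NZB became 0.059, and 9 instead of 2 genes were called between NZB livers. With NZB:C57 liver replicate 1 as the 1 library of its group, chosen after seeing the data and assumed to vary like the other groups, 14 genes were called against NZB:NZB and 3 against BL/6J:C57, where Actc1 (-0.045), Tnnt2 (-0.11), Ttn (-0.10) and Myl2 (-0.026) changed sign. For mtDNA on the BL/6J nucleus DESeq2 called 7 genes in heart and 1 in liver, and 0 were called in heart with no filter, library totals, only the libraries compared, or without the NZB:C57 libraries. A filter of 5 left 11 calls between NZB:NZB and BL/6J:NZB livers, and using only the libraries compared left 5 between NZB:C57 and BL/6J:C57 livers. The cause was not tested.

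Leaving out 1 library gave 0 to 1 calls for mtDNA on the BL/6J nucleus in heart and 0 to 1 in liver, 27 to 28 and 1 to 3 on the NZB nucleus, 15 to 19 and 15 to 20 for the nucleus with NZB mtDNA, and 28 to 30 and 5 to 21 with C57 mtDNA. The interaction had 27 in each case. In NZB livers the median ran from -0.75 without NZB:C57 replicate 2 to 0.066 without replicate 1. Deviations of same-numbered libraries of 2 groups had correlations of -0.213 to 0.163 in heart and -0.247 to 0.277 in liver. Between heart and liver of a genotype they were -0.093 to 0.255. These values cannot show whether same-numbered pools share mice or a batch. With the number as replicate block 0 genes were called for mtDNA on the BL/6J nucleus in heart (Xirp1 adjusted p = 0.0849, limma). In liver, genes with few reads limit what can be tested.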
